A study of Mus musculus with 12 samples.

Results

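Fatty acid uptake and mitochondrial β-oxidation were described through 31 mouse genes, chosen by function as the transporters, enzymes and electron carriers that bring a fatty acid from the capillary to the respiratory chain. The array held a probeset assigned to that gene alone for 30 of them, out of 22180 genes with such a probeset. Acsl1, the main long-chain acyl-CoA synthetase of muscle, had none and was not analysed here. All 30 lay above the filter on dim genes, which was set on the mean over all arrays, and were tested among 13308 genes. Acad10 and Hadhb lay closest to its floor of 5.32 on the log2 scale, at mean levels of 5.41 and 5.60.

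The series measured gastrocnemius, a mixed and mostly fast-twitch calf muscle, on Affymetrix Mouse Gene 2.0 ST arrays in 4 groups of 3. These were ERRα-null mice 2 h after running on a treadmill until exhausted, wild-type mice at the same time after the same run, sedentary ERRα-null mice and sedentary wild-type mice. All were labelled as FVB males aged 2 to 3 months, and the 3 arrays of a group as biological replicates. The labels state no tissue restriction of the null genotype, and how the allele was made is not given in the sources used here. Groups follow the sample titles; the source name gives another exercise state for the sedentary ERRα-null and the exercised wild-type arrays.

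Lipoprotein lipase frees fatty acids at the capillary wall, carriers such as CD36 and the FATP proteins take them into the fibre, and synthetases couple them to coenzyme A. The carnitine shuttle moves the acyl group into the mitochondrion, where each turn of β-oxidation runs through an acyl-CoA dehydrogenase, a hydratase, a hydroxyacyl-CoA dehydrogenase and a thiolase. The dehydrogenases pass their electrons to the electron transfer flavoprotein and on to ubiquinone. The orphan nuclear receptor ERRα is the product of Esrra and works with the coactivator PGC-1α on genes of oxidative metabolism, and Acadm is a classic target studied in heart and muscle.

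Esrra itself was at 6.85, 6.58 and 6.73 on the exercised ERRα-null arrays, against 7.47, 7.63 and 7.41 on the exercised wild-type arrays. The sedentary arrays had 6.55, 6.89 and 6.68 in ERRα-null mice, against 7.61, 7.57 and 7.41 in wild-type mice. Esrra was thus lower in ERRα-null muscle, with no overlap of arrays. The log2 difference was −0.78 ± 0.11 after exercise (SE, limma adjusted p = 0.0227) and −0.82 ± 0.11 at rest (adjusted p = 0.0238), and these calls held in 16 of 23 and 12 of 23 alternatives. The summed log2 level of 8 skeletal muscle markers was 15.98 to 16.09 on all 12 arrays. Signals of other tissues varied between arrays. Ucp1, the uncoupling protein that defines brown fat, exceeded 9 on 1 sedentary ERRα-null array (9.43) and 2 sedentary wild-type arrays (10.82 and 10.93), and was at most 6.24 on the exercised arrays. Liver albumin ran from 6.24 to 12.82 over the 12 arrays. Sedentary ERRα-null replicate 1 carried seminal vesicle transcripts at a summed log2 level of 14.04, against 5.29 to 5.63 elsewhere. Despite the male label, 2 exercised ERRα-null arrays (replicates 2 and 3) and 1 exercised wild-type array (replicate 3) had more Xist than Eif2s3y signal. Results are therefore also given without the 3 arrays of female profile and without the 3 arrays with high Ucp1. All 3 arrays of female profile were exercised. The first setting leaves only replicate 1 of the exercised ERRα-null arrays, and the second only replicate 1 of the sedentary wild-type arrays. A call lost in either setting cannot be told apart from the effect of fewer arrays.

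Averaged over both exercise states, 7 of the 30 genes fell at an adjusted p under 0.05, where 0.999% of all genes tested fell. None of the 30 rose, where 0.428% of all genes rose. The 7 were Acadvl, Acadl, Acads and Acad11 of the acyl-CoA dehydrogenases, the thioesterase Acot13, Etfdh of the electron transfer chain and Cpt2 of the carnitine shuttle. The difference was below 0 for 29 of 30 genes, against 49.8% of all genes tested, and its median was −0.20 on the log2 scale, against 0.00045 over all genes. Cpt1a was the exception, at 0.04 ± 0.13 (SE).

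The count of calls rested on few arrays. Without the 3 female-profile arrays, which leaves 1 exercised ERRα-null array, the median of the 30 was −0.21. Without the 3 arrays with Ucp1 above 9, which leaves 1 sedentary wild-type array, the median was again −0.21. With a fat marker score as a covariate 9 of the 30 were called, all lower, and the median was −0.20. Over all genes tested 1.86% were then called in either direction. Leaving out 1 array at a time gave 2 to 8 calls, with 2 without sedentary wild-type replicate 2, 3 without sedentary wild-type replicate 1 and 4 without exercised ERRα-null replicate 1.

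Taken state by state, the difference was called for 2 genes after exercise and for none at rest. In exercised muscle Acadvl and Acadl fell, against 0.286% of all genes tested. The difference was below 0 for 27 of 30 (49.6% of all genes) with a median of −0.25 (0.0013 over all genes), and for 17 of 30 every ERRα-null array lay below every wild-type array, against 9.31% of all genes. In sedentary muscle 0 of 30 were called by limma, against 0.0301% of all genes tested that were lower, and 13 of 30 had an unadjusted p under 0.05, against 1094 of the 13308 genes. There the difference was below 0 for 25 of 30 (50.4% of all genes) with a median of −0.19 (−0.0012 over all genes), and the arrays did not overlap for 12 of 30, against 6.53%. Both states shared 8 genes without overlap, namely Acaa2, Acad11, Acadl, Acads, Acadvl, Acot13, Decr1 and Etfdh, against 1.87% of all genes tested. In both states the sign was negative for 22 of 30, against 28.8% of all genes.

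The 2 calls after exercise were lost (0 of 30) with no filter, without the intensity trend, with median centring, on the exercised arrays alone, and without either the female-profile or the high-Ucp1 arrays. The high-Ucp1 arrays were all sedentary and enter this comparison only through the spread shared by all groups. Without them the differences stayed at −0.50 for Acadvl and −0.41 for Acadl. Leaving out 1 array at a time gave 3 calls without sedentary ERRα-null replicate 1, 1 call without sedentary ERRα-null replicate 3 or sedentary wild-type replicate 3, and 0 calls when each of the other 9 arrays was left out in turn. The sample titles number the replicates but do not say that equal numbers form pairs. A replicate block on the exercised arrays kept Acadvl (adjusted p = 0.0413) but not Acadl (adjusted p = 0.0611). A block over all 12 arrays kept Acadl (adjusted p = 0.0422) but not Acadvl (adjusted p = 0.0632).

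**Figure D1:**
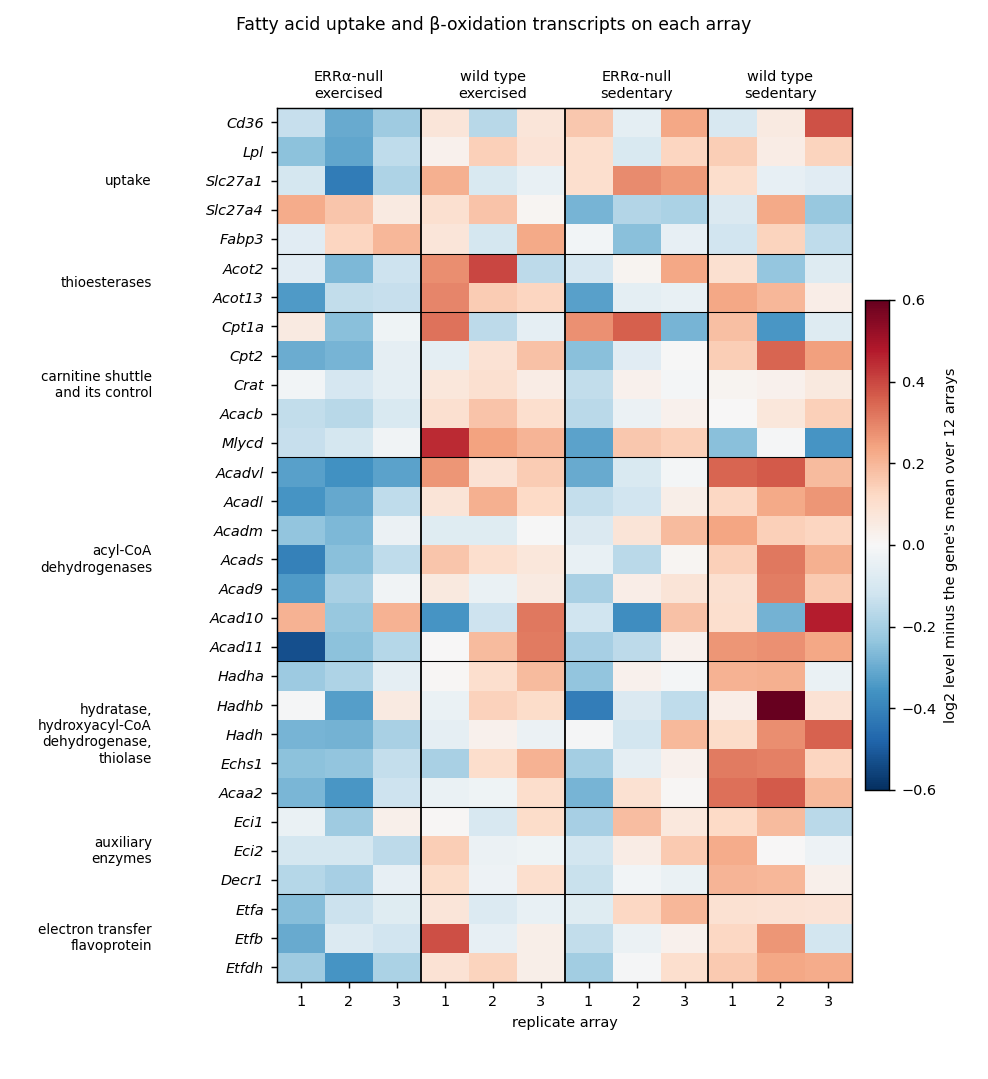
Log2 level of each of the 30 genes on each of the 12 arrays after subtracting the gene's mean over all arrays (colour scale, −0.6 to 0.6), with genes in rows by role and arrays in columns by group. Values below the gene mean (blue) fill most of the 3 exercised ERRα-null columns, with 27, 28 and 25 of 30 genes, and the column of sedentary ERRα-null replicate 1, with 26. That sedentary array also carried seminal vesicle transcripts.

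Counted per array, 27, 28 and 25 of the 30 genes lay below their own mean on the exercised ERRα-null arrays, against 7, 13 and 7 on the exercised wild-type arrays. The sedentary counts were 26, 18 and 10 in ERRα-null mice, against 4, 5 and 10 in wild-type mice. Exercised arrays of the genotypes were thus well apart, while sedentary ERRα-null replicate 3 had the same count as sedentary wild-type replicate 3. Those 2 arrays both had Ucp1 above 9, at 9.43 in the ERRα-null and 10.93 in the wild-type muscle. The other array with Ucp1 above 9, sedentary wild-type replicate 2 (10.82), had a count of 5. A link between Ucp1 and these counts was not tested. The sedentary ERRα-null array with 26 was replicate 1, which carried the seminal vesicle transcripts. Without it the median sedentary difference of the 30 genes was −0.12, against −0.19 with all arrays. A link between those transcripts and the counts was not tested either.

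Markers of fibre type and of B cells were set beside these values. The difference of slow-fibre markers was above 0 for 9 of 9 genes in both states, with a median of 0.20 after exercise and 0.53 at rest, and none was called. That of fast-fibre markers was above 0 for 6 of 8 genes after exercise and 5 of 8 at rest. Their medians were 0.026 and 0.016, and none was called. Over all 13308 genes the difference was above 0 for 6711 after exercise and 6601 at rest. At rest 7 of the 9 slow-fibre markers had an unadjusted limma p under 0.05, against 1094 of all genes. After exercise none of the 9 did, against 1382 of all genes. The summed log2 level of the slow-fibre markers was 13.16 to 13.50 in exercised ERRα-null, 12.79 to 13.50 in exercised wild-type, 13.23 to 13.77 in sedentary ERRα-null and 12.69 to 13.32 in sedentary wild-type muscle. These sums overlapped between genotypes in both states. With the slow-minus-fast fibre score as a covariate, 5 of the 30 genes were called in the average over states, all lower. Over all genes tested 0.939% were then called in either direction. The median of the 30 was −0.22. B-cell markers were at a summed log2 level of 8.53 to 10.17 in exercised ERRα-null and 11.35 to 12.14 in exercised wild-type muscle, and of 10.17 to 11.32 in sedentary ERRα-null and 11.66 to 12.08 in sedentary wild-type muscle. Ighm alone was at 8.13 to 10.08 in exercised ERRα-null muscle, against 11.31 to 12.11 in exercised wild-type muscle, and was called lower. Cd79a had the opposite sign after exercise, at 5.11, 5.47 and 5.07 in ERRα-null muscle, against 5.13, 5.37 and 4.89 in wild-type muscle. Its exercised means, 5.22 and 5.13, lay below the filter floor of 5.32, so that sign carries little weight. The highest sedentary value of Cd79a, 8.95, was on an ERRα-null array. The part of these cells in the results was not tested. In a bulk sample, fewer cells of a type and less RNA per cell cannot be told apart.

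**Figure D2:**
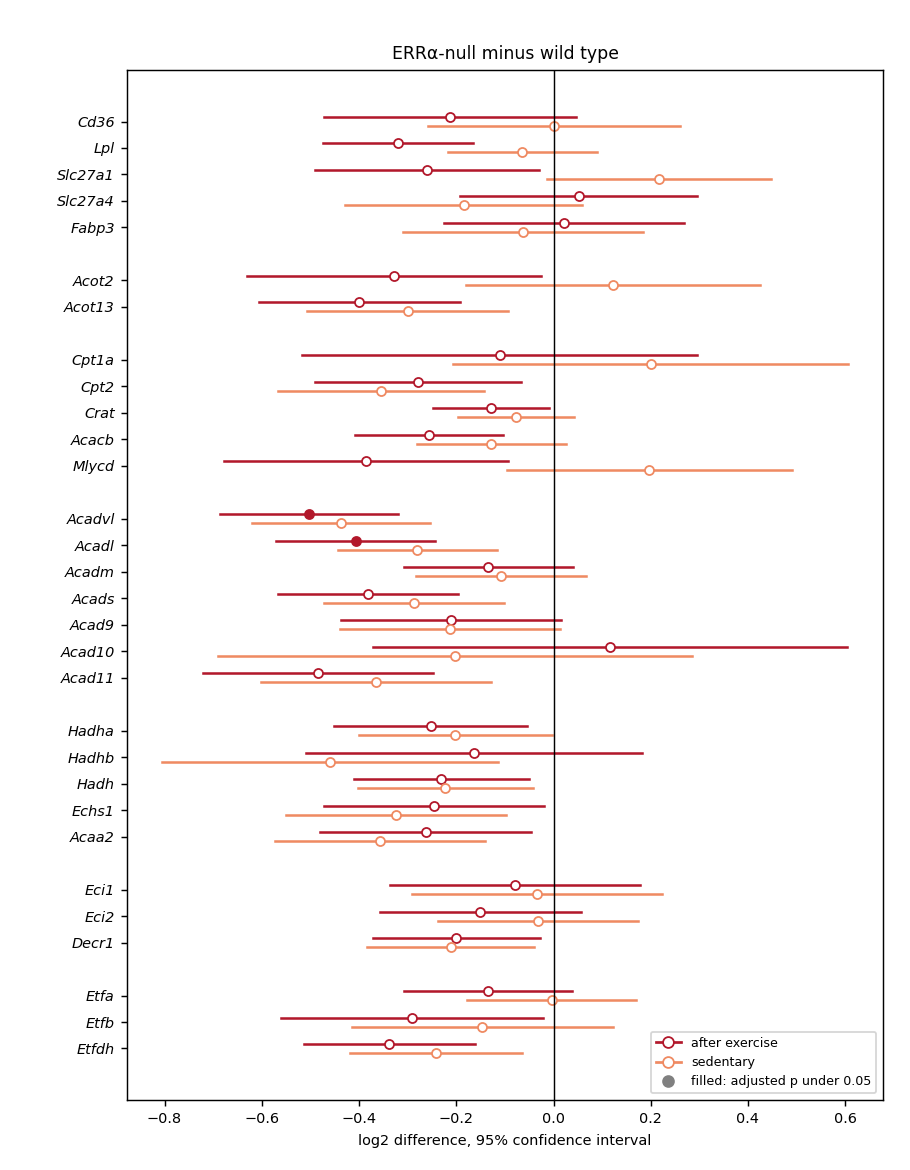
Difference in log2 level, ERRα-null minus wild type, for each of the 30 genes after exercise (dark) and at rest (light), with 95% confidence intervals from limma and filled points for an adjusted p under 0.05. Points lie left of 0 for 27 of 30 genes after exercise and 25 of 30 at rest, and only Acadvl and Acadl after exercise are filled.

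The acyl-CoA dehydrogenases, which make the first double bond of each turn and differ in the chain length they accept, held 4 of the 7 calls. Their median difference was −0.38 after exercise and −0.28 at rest, below 0 for 6 of 7 and 7 of 7 genes. Acadvl, the very-long-chain enzyme of the inner membrane, was at 9.57, 9.53 and 9.58 on the exercised ERRα-null arrays, against 10.16, 9.98 and 10.05 on the exercised wild-type arrays. It was at 9.60, 9.81 and 9.89 on the sedentary ERRα-null arrays, against 10.25, 10.27 and 10.09 on the sedentary wild-type arrays. All 6 ERRα-null arrays lay below all 6 wild-type arrays. Acadvl was 0.706-fold of wild type after exercise (log2 difference −0.50 ± 0.08, SE, adjusted p = 0.0358) and 0.722-fold averaged over states (−0.47 ± 0.06, adjusted p = 0.00384), while the sedentary difference of −0.44 ± 0.08 had an adjusted p of 0.0902.

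Acadl, the long-chain dehydrogenase of the matrix, was at 10.12, 10.17 and 10.32 on the exercised ERRα-null arrays, against 10.55, 10.69 and 10.60 on the exercised wild-type arrays. The sedentary values were 10.33, 10.36 and 10.51 in ERRα-null mice, against 10.60, 10.71 and 10.74 in wild-type mice. Here too no ERRα-null array reached any wild-type array. Acadl was 0.754-fold after exercise (−0.41 ± 0.07, adjusted p = 0.0473) and 0.788-fold averaged over states (−0.34 ± 0.05, adjusted p = 0.00812).

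Acads, the short-chain enzyme, was at 7.90, 8.05 and 8.15 on the exercised ERRα-null arrays, against 8.47, 8.40 and 8.37 on the exercised wild-type arrays. At rest it was at 8.26, 8.14 and 8.32 in ERRα-null mice, against 8.45, 8.62 and 8.51 in wild-type mice. The genotypes did not overlap, and Acads was 0.793-fold averaged over states (−0.33 ± 0.06, adjusted p = 0.0191). Acad11, which works on long-chain substrates including hydroxylated ones, was at 7.64, 7.92 and 7.9999 after exercise in ERRα-null mice, against 8.17, 8.36 and 8.48 in wild-type mice. Its sedentary values were 7.97, 8.02 and 8.197 in ERRα-null mice, against 8.44, 8.44 and 8.40 in wild-type mice. Within each state the genotypes were apart, and the average was 0.745-fold (−0.43 ± 0.08, adjusted p = 0.0191).

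Acadm, the medium-chain enzyme, stood nearer to its wild-type level. It was at 10.99, 10.96 and 11.19 on the exercised ERRα-null arrays, against 11.16, 11.16 and 11.23 on the exercised wild-type arrays, and at 11.15, 11.31 and 11.42 on the sedentary ERRα-null arrays, against 11.47, 11.37 and 11.36 on the sedentary wild-type arrays. Genotypes overlapped in both states. The averaged difference was −0.12 ± 0.06 (adjusted p = 0.416), with a 95% interval of −0.24 to 0.0020. A test of the difference between Acadm and its relatives was not run. Acad9, which also assembles respiratory complex I, was at −0.21 ± 0.07 (adjusted p = 0.228), and the dim Acad10 at −0.04 ± 0.16 (adjusted p = 0.949).

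**Figure D3:**
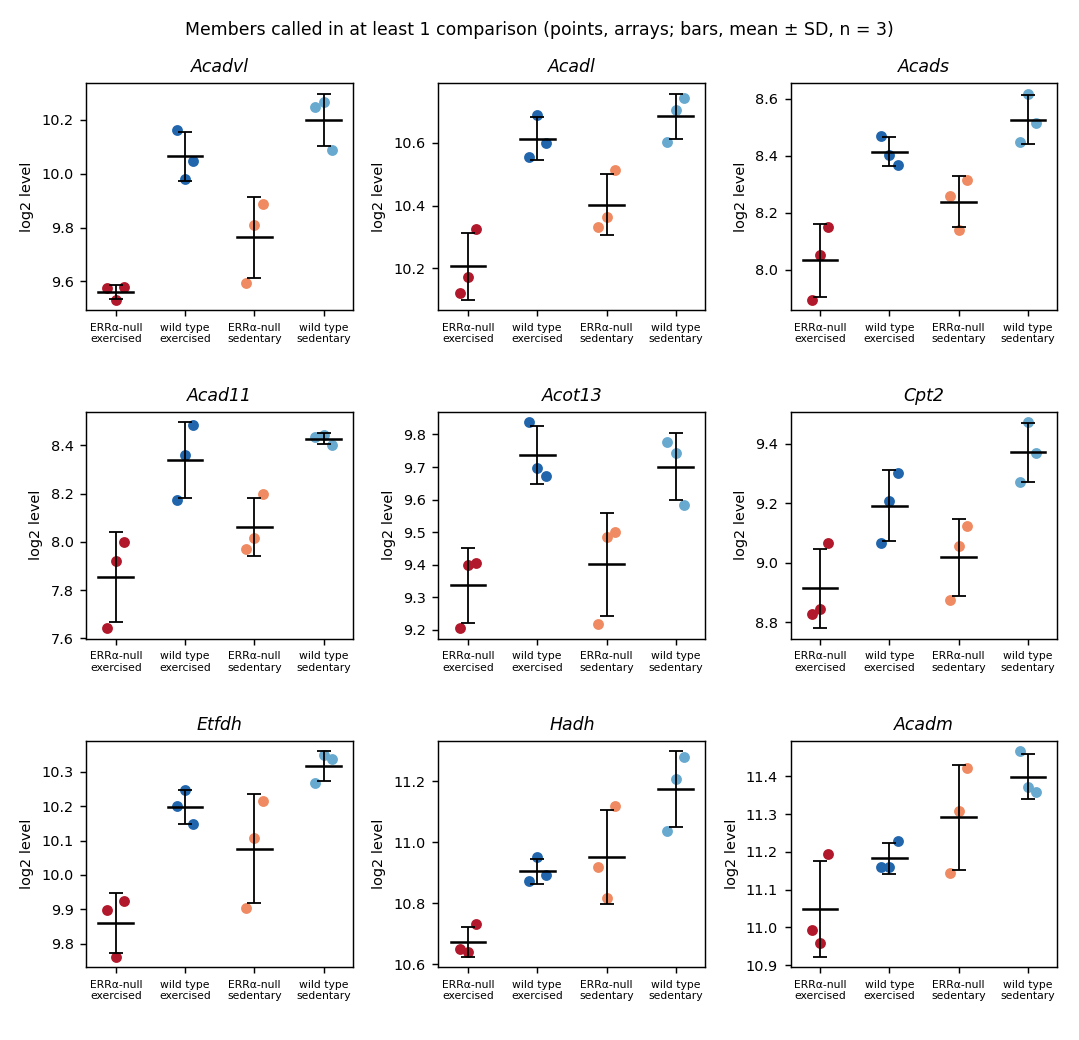
Log2 level on each array (points) with the group mean and SD (line and bars, n = 3) for the 9 genes called in any comparison, in the order exercised ERRα-null, exercised wild type, sedentary ERRα-null and sedentary wild type. Acadvl, Acadl, Acads and Acot13 show all 6 ERRα-null arrays below all 6 wild-type arrays, and Hadh and Acadm are the 2 genes called for exercise.

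RefSeq windows from 250 bases before to 50 bases after the gene start (GRCm38.p6) were in the table for 25 of the 31 genes, as 28 windows, and were searched on both strands. The ERR element TNAAGGTCA was in 0 of the 28 windows, against 1.28% of all 32851 windows and 0.682% of the 13207 windows of genes tested on the arrays. The PPAR response element, a direct repeat of AGGTCA with a 1-base spacer, was also in 0 of 28, against 0.0396% of all windows. The core hexamer AGGTCA, contained in both elements, was added to the search after the data were seen. It was in 6 of the 28 windows (21.4%), against 16.3% of all windows and 12.8% of the windows of tested genes. It was in the windows of Acadvl, Acadm, Echs1, Cpt1a, Cd36 and Acacb, and so in 1 of the 6 called genes that the table holds. A match is only a run of letters, and a missing one says nothing about binding elsewhere.

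These windows are shown because they set the strongest genotype calls (Acadvl and Acadl) beside Acadm, which had none, and beside Hadha, which lies head to head with its partner subunit. Acadm and Hadha were chosen for printing after their values were seen. The Acadvl window is chr11:70015379-70015678, the Acadl window chr1:66863260-66863559, the Acadm window chr3:153944594-153944893 and the Hadha window chr5:30154931-30155230, all on the minus strand of GRCm38.p6 and written 5′ to 3′ along the gene. Capitals mark the hexamer, which reads TGACCT where it lies on the opposite strand. It starts 87 bases before the start of Acadvl and 249 bases before that of Acadm.
Acadvl: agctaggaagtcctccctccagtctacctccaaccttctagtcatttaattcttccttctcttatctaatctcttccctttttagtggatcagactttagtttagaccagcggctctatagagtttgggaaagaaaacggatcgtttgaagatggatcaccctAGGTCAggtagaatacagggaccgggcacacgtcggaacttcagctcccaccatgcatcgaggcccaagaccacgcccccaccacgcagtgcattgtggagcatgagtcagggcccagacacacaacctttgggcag
Acadl: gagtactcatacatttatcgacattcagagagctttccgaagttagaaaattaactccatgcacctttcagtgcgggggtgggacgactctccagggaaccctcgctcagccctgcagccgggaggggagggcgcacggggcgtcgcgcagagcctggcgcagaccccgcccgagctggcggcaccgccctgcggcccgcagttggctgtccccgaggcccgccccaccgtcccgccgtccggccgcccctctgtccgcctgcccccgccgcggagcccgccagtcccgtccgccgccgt
Acadm: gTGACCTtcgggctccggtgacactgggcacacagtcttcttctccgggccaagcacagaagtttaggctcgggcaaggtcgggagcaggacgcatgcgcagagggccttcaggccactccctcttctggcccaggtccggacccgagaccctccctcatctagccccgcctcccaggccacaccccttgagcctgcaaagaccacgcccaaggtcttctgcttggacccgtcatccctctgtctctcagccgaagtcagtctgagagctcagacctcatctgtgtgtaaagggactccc
Hadha: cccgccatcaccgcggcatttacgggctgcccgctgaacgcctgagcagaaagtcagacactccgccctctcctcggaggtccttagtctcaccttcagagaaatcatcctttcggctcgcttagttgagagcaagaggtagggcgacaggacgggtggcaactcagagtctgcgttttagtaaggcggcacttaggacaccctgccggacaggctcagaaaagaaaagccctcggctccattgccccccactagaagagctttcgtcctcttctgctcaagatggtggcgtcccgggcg

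Of the later steps of the spiral, none was called for genotype, but all 5 genes had differences below 0 in both states. Their median was −0.25 after exercise and −0.32 at rest. Hadha and Hadhb encode the α and β subunits of the trifunctional protein, and their annotated starts lie 273 bases apart on opposite strands. Hadha was at −0.25 ± 0.09 after exercise (adjusted p = 0.321) and −0.20 ± 0.09 at rest (adjusted p = 0.599). Hadhb, which was dim on this array, was at −0.16 ± 0.16 after exercise (adjusted p = 0.840) and −0.46 ± 0.16 at rest (adjusted p = 0.436). The spread of Hadhb was wide, and a difference between the subunits was not tested.

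Hadh, the hydroxyacyl-CoA dehydrogenase for medium and short chains, was at 10.65, 10.64 and 10.73 on the exercised ERRα-null arrays, against 10.87, 10.95 and 10.89 on the exercised wild-type arrays. Its sedentary values were 10.92, 10.82 and 11.12 in ERRα-null mice, against 11.04, 11.21 and 11.28 in wild-type mice. Genotypes were apart after exercise and overlapped at rest, and the average was −0.23 ± 0.06 (adjusted p = 0.0919). Echs1, the enoyl-CoA hydratase of short chains, was at −0.29 ± 0.07 (adjusted p = 0.0919). Acaa2, the matrix thiolase that releases acetyl-CoA, was at −0.31 ± 0.07 and just missed the threshold (adjusted p = 0.0556), with all ERRα-null arrays below the wild-type arrays of the same state.

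In the electron transfer group, Etfdh fell and the flavoprotein subunits were not called. Etfdh, which hands electrons from the flavoprotein to ubiquinone, was at 9.90, 9.76 and 9.92 on the exercised ERRα-null arrays, against 10.20, 10.25 and 10.15 on the exercised wild-type arrays. It was at 9.90, 10.11 and 10.22 in sedentary ERRα-null mice, against 10.27, 10.35 and 10.34 in sedentary wild-type mice. The genotypes were apart in each state, and the average was 0.818-fold (−0.29 ± 0.06, adjusted p = 0.0285). The subunits Etfa and Etfb were at −0.07 ± 0.06 (adjusted p = 0.720) and −0.22 ± 0.09 (adjusted p = 0.314).

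Among the thioesterases, which release free acids from acyl-CoA, Acot13 fell. It was at 9.21, 9.40 and 9.41 on the exercised ERRα-null arrays, against 9.84, 9.70 and 9.67 on the exercised wild-type arrays, and at 9.22, 9.48 and 9.50 in sedentary ERRα-null mice, against 9.78, 9.74 and 9.58 in sedentary wild-type mice. All ERRα-null arrays lay below all wild-type arrays, and the average was 0.785-fold (−0.35 ± 0.07, adjusted p = 0.0247). The mitochondrial Acot2 was at −0.33 ± 0.14 after exercise (adjusted p = 0.438) and 0.12 ± 0.14 at rest (adjusted p = 0.883).

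In the carnitine shuttle the inner-membrane enzyme was called and the outer one was not. Cpt2, which re-forms acyl-CoA in the matrix, was at 8.83, 8.84 and 9.07 on the exercised ERRα-null arrays, against 9.07, 9.21 and 9.30 on the exercised wild-type arrays. It was at 8.87, 9.06 and 9.12 in sedentary ERRα-null mice, against 9.27, 9.47 and 9.37 in sedentary wild-type mice. Only the sedentary arrays were apart, the average was 0.803-fold (−0.32 ± 0.07, adjusted p = 0.0467), and the call held in 5 of 21 alternatives. Cpt1a, the form of the outer-membrane enzyme best known from liver, was at −0.11 ± 0.19 after exercise (adjusted p = 0.940) and 0.20 ± 0.19 at rest (adjusted p = 0.841). Cpt1b, the muscle form, shared its probesets or had none and is not analysed here. Crat, which buffers acetyl groups as acetylcarnitine, was at −0.10 ± 0.04 (adjusted p = 0.273) averaged over states, and its second probeset had the opposite sign after exercise (0.03, against −0.13).

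Malonyl-CoA, which inhibits the shuttle, is made by Acacb and removed by Mlycd. Acacb was at −0.19 ± 0.05 averaged over states (adjusted p = 0.0919). Mlycd was at 7.54, 7.57 and 7.66 on the exercised ERRα-null arrays, against 8.13, 7.92 and 7.88 on the exercised wild-type arrays, and at 7.36, 7.84 and 7.82 on the sedentary ERRα-null arrays, against 7.43, 7.67 and 7.32 on the sedentary wild-type arrays. The genotypes were apart only after exercise. These arrays are shown because the gene was picked out after its values were seen. The differences were −0.39 ± 0.13 after exercise (adjusted p = 0.302) and 0.20 ± 0.13 at rest (adjusted p = 0.777).

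No uptake gene was called for genotype. Lpl, the capillary lipase, had the smallest p of the 5 and was at 10.78, 10.72 and 10.87 on the exercised ERRα-null arrays, against 11.05, 11.17 and 11.11 on the exercised wild-type arrays. At rest it was at 11.12, 10.93 and 11.16 in ERRα-null mice, against 11.17, 11.07 and 11.16 in wild-type mice. The genotypes were apart after exercise (−0.32 ± 0.07, adjusted p = 0.0790) and overlapped at rest (−0.06 ± 0.07, adjusted p = 0.878), and a second Lpl probeset gave −0.36 and −0.16. The transporter Cd36 was at −0.21 ± 0.12 after exercise (adjusted p = 0.619) and 0.0012 ± 0.12 at rest (adjusted p = 0.9996). Slc27a4 and Fabp3, a fatty acid transporter and the cytosolic binding protein of muscle, were at −0.07 ± 0.08 (adjusted p = 0.830) and −0.02 ± 0.08 (adjusted p = 0.952) averaged over states.

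The auxiliary enzymes, which prepare double bonds of unsaturated chains for the spiral, held no call. Decr1, the mitochondrial dienoyl-CoA reductase, was at 8.35, 8.32 and 8.47 on the exercised ERRα-null arrays, against 8.64, 8.49 and 8.62 on the exercised wild-type arrays. It was at 8.39, 8.51 and 8.48 in sedentary ERRα-null mice, against 8.73, 8.73 and 8.56 in sedentary wild-type mice. The genotypes were apart in both states, with an average of −0.21 ± 0.06 (adjusted p = 0.106). The enoyl-CoA isomerases Eci1 and Eci2 were at −0.06 ± 0.08 (adjusted p = 0.859) and −0.09 ± 0.07 (adjusted p = 0.674).

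Within a genotype, exercise gave no call in the pathway. In ERRα-null muscle 0 of 30 genes were called by limma, against 0.639% of all genes tested in either direction, and 11 of 30 had an unadjusted p under 0.05 (1743 of 13308 genes). In wild-type muscle 0 of 30 were called, against 3.43% of all genes, and 4 of 30 had an unadjusted p under 0.05 (2145 of 13308 genes). Exercised minus sedentary, the median was −0.16 in ERRα-null muscle (−0.011 over all genes) and −0.08 in wild-type muscle (−0.0089 over all genes). It was below 0 for 26 of 30 genes in ERRα-null muscle (52.8% of all genes) and 20 of 30 in wild-type muscle (52.3%).

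Averaged over genotypes, Hadh and Acadm fell, 2 of 30 genes where 3.43% of all genes fell, and none rose, where 3.14% of all genes rose. Hadh was 0.827-fold of sedentary muscle (−0.27 ± 0.06, adjusted p = 0.0158) and Acadm 0.853-fold (−0.23 ± 0.06, adjusted p = 0.0307), with the array values given above. For Hadh the exercised arrays lay below the sedentary arrays of the same genotype in both genotypes. For Acadm they did so in wild-type mice only.

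Fat and liver signal differed between arrays beside these 2 calls. The summed log2 level of 7 adipocyte markers was 11.34 to 12.04 in exercised ERRα-null, 11.54 to 12.10 in exercised wild-type, 11.56 to 12.86 in sedentary ERRα-null and 11.37 to 13.23 in sedentary wild-type muscle. That of 5 brown fat markers was 7.68 to 8.15 and 7.56 to 8.20 in the same exercised groups, and 7.86 to 10.11 and 7.81 to 11.47 in the sedentary ones. Liver markers were at a summed log2 level of 8.76 to 10.38 in exercised ERRα-null, 8.87 to 11.33 in exercised wild-type, 8.46 to 12.41 in sedentary ERRα-null and 8.60 to 13.74 in sedentary wild-type muscle, and their part in the result was not tested. With a fat marker score as a covariate neither gene was called. The Hadh difference was smaller, at −0.18 (adjusted p = 0.141), and the Acadm difference was no smaller, at −0.275 (adjusted p = 0.0520). Without the high-Ucp1 arrays Hadh was at −0.16 (adjusted p = 0.215) and Acadm at −0.23 (adjusted p = 0.157), and without the female-profile arrays the count was also 0. The count was 1 with no filter or no intensity trend. Leaving out single arrays gave 6 calls without sedentary ERRα-null replicate 1, and 1 call without exercised ERRα-null replicate 1 or 2, sedentary ERRα-null replicate 3, exercised wild-type replicate 1 or 2, or sedentary wild-type replicate 1 or 3. All of these were lower. Without sedentary wild-type replicate 2 there were 2 calls, of which 1 was Slc27a4, higher at 0.31 (adjusted p = 0.0238).

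**Figure D4:**
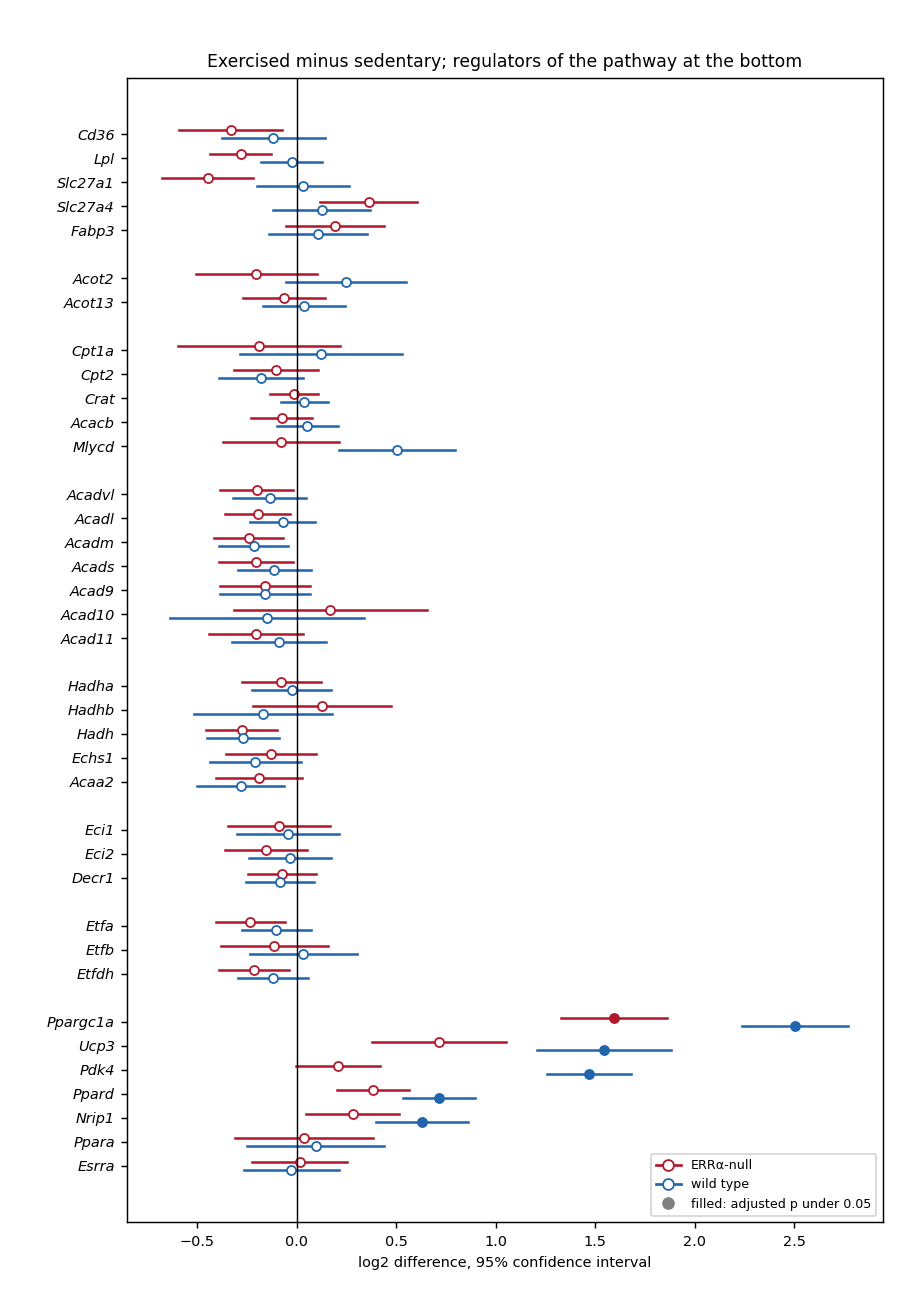
Difference in log2 level, exercised minus sedentary, for each of the 30 genes and 7 regulators in ERRα-null (red) and wild-type (blue) muscle, with 95% confidence intervals and filled points for an adjusted p under 0.05. No point of the 30 is filled, while Ppargc1a is filled in both genotypes and Ucp3, Pdk4, Ppard and Nrip1 in wild-type muscle.

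Some uptake and malonyl-CoA genes had their widest exercise differences in 1 genotype. In ERRα-null muscle the fatty acid transporter Slc27a1 was at −0.45 ± 0.11 (adjusted p = 0.0920), Lpl at −0.28 ± 0.07 (adjusted p = 0.115) and Cd36 at −0.33 ± 0.12 (adjusted p = 0.254), each with the exercised arrays below the sedentary ones. Slc27a4 was at 0.36 ± 0.11 in the same muscle (adjusted p = 0.193), with the exercised arrays above. In wild-type muscle Mlycd was at 0.50 ± 0.13 (adjusted p = 0.0668), with the exercised arrays above. None of these passed the threshold. In ERRα-null muscle the exercised arrays lay below all sedentary ones for 6 of the 30 genes and above for 1. Over all 13308 genes this held for 1335 and 1197. The wild-type counts were also 6 and 1 of the 30, against 1459 and 1337 of all genes. Without sedentary ERRα-null replicate 1, which enters only through the shared spread, Mlycd was called higher in wild-type muscle (0.50, adjusted p = 0.0212).

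Whether the exercise difference itself depended on genotype was tested as an interaction, and no gene of the 30 was called, against 0.00751% of all genes tested. An unadjusted p under 0.05 was found for 4 of the 30, where 681 of 13308 genes had one. They were Slc27a1 at −0.48 ± 0.15 (adjusted p = 0.828), Mlycd at −0.58 ± 0.19 (adjusted p = 0.862), Lpl at −0.26 ± 0.10 (adjusted p = 0.948) and Acot2 at −0.45 ± 0.20 (adjusted p = 0.951). Their 95% intervals lay below 0, from −0.80 to −0.15 for Slc27a1 and from −0.996 to −0.17 for Mlycd.

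**Figure D5:**
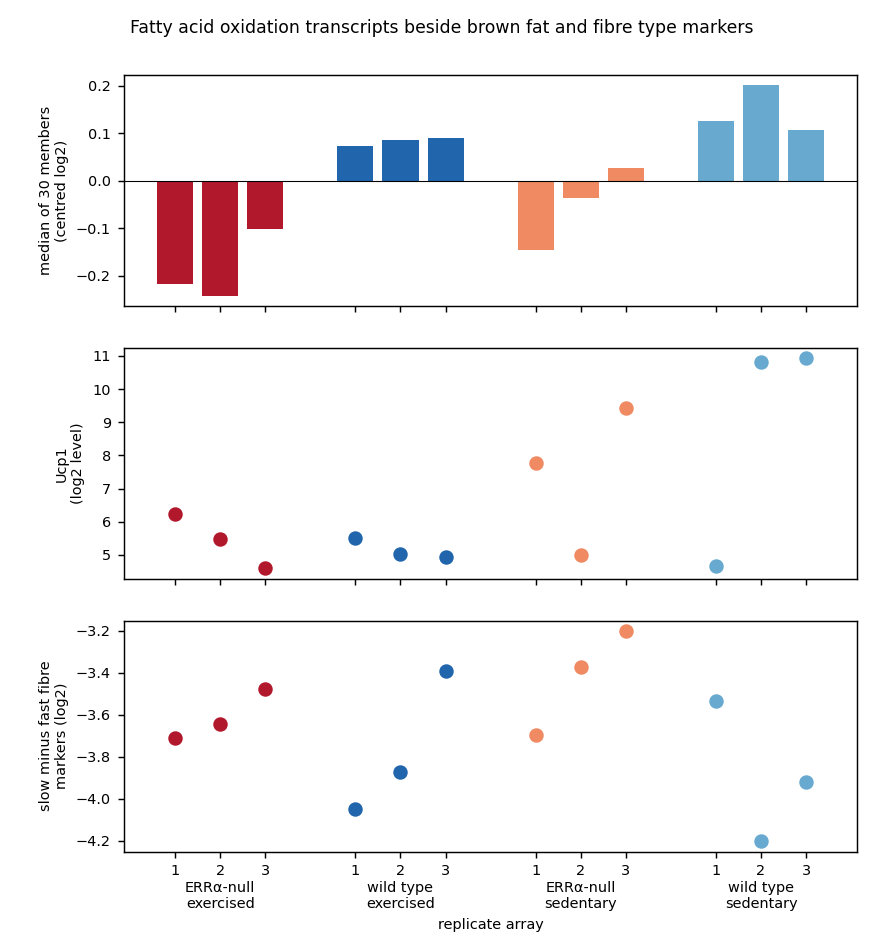
For each array, the median over the 30 genes of the log2 level centred on the gene's mean, with Ucp1 and the fibre score (mean log2 of slow minus fast markers) of the same array. The median is −0.22, −0.24 and −0.10 on the exercised ERRα-null arrays and 0.07, 0.08 and 0.09 on the exercised wild-type arrays, all of which have Ucp1 at or below 6.24.

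Of 14 regulators of the pathway, 1 rose with exercise in ERRα-null muscle, where 0.383% of all genes tested rose, and 5 in wild-type muscle, where 2.22% did. Ppargc1a, which encodes PGC-1α, was at 11.39, 11.69 and 11.53 in exercised and 10.16, 9.80 and 9.86 in sedentary ERRα-null mice, and at 12.05, 11.80 and 12.15 in exercised and 9.67, 9.44 and 9.36 in sedentary wild-type mice. It rose 3.02-fold in ERRα-null muscle (adjusted p = 0.000128) and 5.68-fold in wild-type muscle (adjusted p = 7.08e-07), with an interaction of −0.91 ± 0.17 that missed the threshold (adjusted p = 0.329). The other risen regulators, all in wild-type muscle, were Ucp3, Pdk4, Ppard and Nrip1. Nrip1, a corepressor of nuclear receptors, was at 0.63 (adjusted p = 0.00678), and lost its call without the high-Ucp1 arrays (0.75, adjusted p = 0.0608) and with a replicate block on the wild-type arrays alone (adjusted p = 0.0640). The calls of the other 4 in wild-type muscle held without the female-profile arrays and without the high-Ucp1 arrays. That of Ppargc1a in ERRα-null muscle did so too, but not with a replicate block on the ERRα-null arrays alone (adjusted p = 0.0786). Pdk4, the kinase that closes pyruvate dehydrogenase and so spares glucose, was at 12.08, 11.76 and 11.71 in exercised ERRα-null mice, against 12.41, 12.29 and 12.19 in exercised wild-type mice. The sedentary values were 11.75, 11.66 and 11.52 in ERRα-null mice, against 10.85, 10.76 and 10.88 in wild-type mice. Pdk4 was thus higher in sedentary ERRα-null than in sedentary wild-type muscle (0.81 ± 0.10, adjusted p = 0.0159). That call held in 17 of 23 alternatives. It was lost without the high-Ucp1 arrays (0.86, adjusted p = 0.105), with a replicate block on the sedentary arrays alone (adjusted p = 0.389), and without sedentary ERRα-null replicate 1 (0.0521) or 2 (0.0725) or sedentary wild-type replicate 1 (0.0581) or 2 (0.107). It rose with exercise in wild-type muscle (1.47 ± 0.10, adjusted p = 9.75e-06), while the difference in ERRα-null muscle was 0.21 ± 0.10 (adjusted p = 0.391). Ucp3, a mitochondrial carrier induced by fatty acids, was at 0.71 in ERRα-null muscle (adjusted p = 0.0659) and rose by 1.54 in wild-type muscle (adjusted p = 0.000152).

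The other genes of fatty acid handling were read from lists of 65 genes, of which 56 were tested, 2 were too dim and 7 had no probeset of their own. Averaged over states, genotype was called for 0 of 11 further synthetase and carnitine genes, 0 of 13 peroxisomal genes, 0 of 11 lipolysis and lipid droplet genes and 0 of 4 lipoprotein genes. Over all genes tested, 0.999% were called lower and 0.428% higher. At an unadjusted p under 0.05 the 4 counts were 4, 4, 2 and 0, and 1647 of 13308 over all genes. The ketone body list had 1 of 3, Acat1, the mitochondrial acetoacetyl-CoA thiolase. Acat1 was at 10.91, 10.78 and 10.96 on the exercised ERRα-null arrays, against 11.11, 11.20 and 11.20 on the exercised wild-type arrays. At rest it was at 10.95, 11.06 and 11.14 in ERRα-null mice, against 11.36, 11.31 and 11.28 in wild-type mice. The genotypes did not overlap within a state, and the average was 0.825-fold (−0.28 ± 0.05, adjusted p = 0.0139). The Acat1 call was lost without the female-profile arrays (−0.26, adjusted p = 0.207) and without the high-Ucp1 arrays (−0.32, adjusted p = 0.0672), and held in the other 19 alternatives. Slc25a20, the carnitine-acylcarnitine translocase between Cpt1 and Cpt2 enzymes, was at −0.20 (adjusted p = 0.277), and Plin5, which ties lipid droplets to mitochondria, at −0.37 (adjusted p = 0.0902).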

How the data were processed

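Total RNA of gastrocnemius was hybridised to 12 arrays. The authors deposited log2 expression values, 1 column per array, made with RMA in Affymetrix Expression Console and Transcriptome Analysis Console per the submitters' processing notes. No version is named, and the build is not given in the sources used here. RMA forces the arrays onto a common distribution, so differences are relative to the bulk of transcripts, and summaries compress changes of dim ones. Array medians ran from 5.15 to 5.26 and correlations between arrays from 0.970 to 0.987. Arrays have no read depth, and their number limits the precision.

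The platform table gave 1 gene symbol for 23521 of 41345 probesets, several for 1814 and none for 16010. The brightest of several probesets stood for a gene, and the dimmest 40% of genes were not tested. limma 3.58.1 in R 4.3.3 fitted 4 group means to all 12 arrays (8 residual degrees of freedom, eBayes with an intensity trend). Tests were two-sided, with Benjamini-Hochberg adjustment over 13308 genes in each of 7 comparisons and calls at an adjusted p under 0.05. Values after ± are standard errors.

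The genes and lists were chosen with earlier results of these data known. Values on every array are given for genes called in any comparison and, in a role group with none, for the gene with the smallest genotype p. Genes of other lists were named by smallest p, up to 4 a list, except that Slc25a20, Plin5 and the array values of Mlycd and Ppargc1a were added after their values were seen. Replicate numbers shared by groups were checked as pairs. Deviations of same-numbered exercised arrays correlated at 0.31, 0.21 and 0.17, all over 0.1, and those of differently numbered ones at −0.22 to 0.03. For same-numbered sedentary arrays the correlations were −0.23, −0.28 and 0.35, and for differently numbered ones −0.56 to 0.63. Same-numbered arrays correlated between states at 0.27, 0.06 and 0.16 in wild-type muscle, and at 0.04, −0.15 and −0.01 in ERRα-null muscle. The titles state no pairing. Alternatives covered the filter, trend, centring, probeset choice, replicate block, marker scores as covariates and left-out arrays.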

Additional observations from a re-analysis of the deposited data

Results flagged for a closer look

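One difference between groups passed its own test. The exercise difference of Pdk4, the pyruvate dehydrogenase kinase, was smaller in the ERRα-null mice than in wild type, with an interaction of −1.26 ± 0.14 on the log2 scale (SE, limma adjusted p = 0.0121). All 3 exercised wild-type arrays lay above all sedentary wild-type arrays, while the ERRα-null groups overlapped. The call held in 14 of 21 alternatives, which ran from −1.38 to −1.09 with adjusted p-values of 0.00121 to 0.173. It was lost without the female-profile arrays (−1.09, adjusted p = 0.0645), without the high-Ucp1 arrays (−1.30, adjusted p = 0.173) and without each of 5 single arrays.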

How the results depend on the processing

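Of 155 alternative values of the median difference over the 30 genes, 154 differed from the reported value by less than the spread used for them. That spread was the pooled SD, within groups, of the median over the 30 genes on each array. Many alternatives could not move the median, so this count is partly fixed in advance. They were no filter, no trend, the replicate block, the compared arrays alone and arrays left out of groups not compared. The interaction without sedentary ERRα-null replicate 1 moved, to −0.15, and its range without 1 array was −0.15 to −0.030. The other ranges without 1 array were −0.28 to −0.21 for genotype after exercise, −0.21 to −0.12 at rest and −0.22 to −0.18 averaged, and −0.21 to −0.10 for exercise in ERRα-null muscle, −0.09 to −0.05 in wild-type muscle and −0.14 to −0.10 averaged. Counts of called genes were less stable. For genotype after exercise (2 called) the count was 0 with no filter, no intensity trend, median centring, the compared arrays alone, without the female-profile arrays and without the high-Ucp1 arrays. It was 1 with the replicate block over all arrays or over the compared arrays (the block over the compared arrays was added after seeing the data), the mean of probesets and the fibre score, and 0 to 3 without 1 array. For genotype averaged (7 called) it was 2 to 8 without 1 array. With the fat score it was 9, all lower, where 1.86% of all genes were called in either direction. It was 5 to 7 with no filter, no trend, the replicate block, median centring, the mean of probesets and the fibre score. For exercise averaged (2 called) it was 1 with no filter or no trend, 0 without the female-profile arrays, 0 without the high-Ucp1 arrays, 0 with the fat score and 1 to 6 without 1 array, all lower except Slc27a4 without sedentary wild-type replicate 2. For exercise in wild-type muscle (0 called) it was 0 to 1 without 1 array, the 1 being Mlycd, higher, without sedentary ERRα-null replicate 1. Counts stayed at 0 in all alternatives run for genotype at rest, exercise in ERRα-null muscle and the interaction, with 0 to 0 without 1 array. Leaving out arrays also leaves fewer residual degrees of freedom; otherwise the cause was not tested. The 11 called results gave 235 alternative values, of which 134 kept the call, 101 did not and 0 changed sign. Here too, some alternatives leave the difference itself unchanged, so its sign could not change in them. The replicate block over all arrays changed no other count of calls among the 30 genes. Over all genes it gave 3 calls against 11 for genotype at rest and 23 against 50 after exercise, and Esrra at rest (adjusted p = 0.0590) and Vldlr for exercise averaged (adjusted p = 0.0651) lost their calls. On the compared arrays alone it gave 1, 73, 143 and 0 calls over all genes for genotype at rest and after exercise and for exercise in wild-type and ERRα-null muscle, against 11, 50, 457 and 85.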

Other observations

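Peroxisomal fatty acid oxidation, which shortens very long and branched chains, was read from a list of 13 tested genes. Averaged over genotypes, 4 of 13 peroxisomal genes fell and none rose, where 3.43% of all genes tested fell and 3.14% rose. The difference was below 0 for 13 of 13 genes in each genotype, against 52.8% of all genes in ERRα-null and 52.3% in wild-type muscle. The 4 called genes were Ehhadh, the bifunctional enzyme (−0.49, limma adjusted p = 0.0180), Abcd2, an importer of very long chains (−0.42, adjusted p = 0.0145), Decr2, the peroxisomal dienoyl-CoA reductase (−0.59, adjusted p = 0.0274), and Crot, carnitine octanoyltransferase (−0.32, adjusted p = 0.0173). Ehhadh was at 6.38, 5.87 and 6.30 in exercised ERRα-null and 6.40, 6.31 and 6.09 in exercised wild-type mice, and at 6.65, 6.48 and 6.48 in sedentary ERRα-null and 7.16, 6.81 and 6.70 in sedentary wild-type mice. Without the 3 high-Ucp1 arrays Ehhadh was at −0.64 and Decr2 at −0.88, while Abcd2 and Crot lost their calls. That setting leaves only replicate 1 of the sedentary wild-type arrays. This array had the highest Ehhadh (7.16) and Decr2 (7.77) of all arrays. It also had the highest summed log2 level of liver markers, 13.74. The part of liver signal in these differences was not tested. Without the 3 female-profile arrays none of the 4 was called, with adjusted p-values of 0.232 to 0.286.

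On the same average, exercise was called lower for 2 of 11 further synthetase and carnitine genes, 1 of 11 lipolysis and lipid droplet genes and 1 of 4 lipoprotein genes, and higher for none of them. Over all genes tested 3.43% fell and 3.14% rose. Acsl5, an acyl-CoA synthetase, was at −0.40 (adjusted p = 0.0170) and Acot11, a thioesterase best known from brown fat, at −0.39 (adjusted p = 0.00880). Dgat2, which completes triglyceride synthesis, was at −1.22 (adjusted p = 0.0165) and Vldlr, a lipoprotein receptor, at −0.51 (adjusted p = 0.0499). None of these 4 was called without the 3 high-Ucp1 arrays or without the 3 female-profile arrays. With the fat score as a covariate Dgat2 was at −0.60 and kept its call (adjusted p = 0.0217), while Acsl5 (−0.39, adjusted p = 0.0856), Acot11 (−0.33, adjusted p = 0.0780) and Vldlr (−0.24, adjusted p = 0.357) did not. With the same covariate Ehhadh and Decr2 kept their calls (adjusted p = 0.0285 and 0.00555), and Abcd2 and Crot did not (adjusted p = 0.120 and 0.0950).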
